A study of Mus musculus with 8 samples.

Results

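The 10 genes described here serve fatty acid uptake in endothelial cells (EC) of the mouse heart. They were the rows named Cd36, Slc27a3, Fabp4, Fabp5, Lpl, Gpihbp1, Aqp7, Meox2, Tcf15 and Pparg among the 16791 genes of a single table of UMI counts, and all 10 were found. A UMI (unique molecular identifier) marks 1 captured RNA molecule. Every mouse was an adult carrying Pdgfb-iCreERT2-R26R-Brainbow2.1, in which a tamoxifen-inducible Cre driven by Pdgfb switches on a Confetti fluorophore, and all 8 had received a single intraperitoneal dose of tamoxifen at 150 mg/kg. The 4 MI mice had the left anterior descending coronary artery tied permanently 14 days after tamoxifen, and their hearts were taken 7 days after MI, which is 21 days after tamoxifen. The 4 healthy mice were controls that, per the methods, had no surgery. A difference between MI and healthy mice therefore joins the infarct with the operation itself, and these cannot be told apart. Ventricular cells were sorted as CD31+ Confetti+ Podoplanin-, a gate for recombined cells of the Pdgfb lineage, and went into 10X Chromium libraries, 1 per mouse.

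The heart burns mostly fatty acids, and these have to cross the capillary endothelium. Lipoprotein lipase frees them from triglyceride-rich particles while held on the capillary wall by GPIHBP1, CD36 and fatty acid transport proteins take them up at the membrane, FABP4 and FABP5 bind them in the cytosol, and AQP7 passes the glycerol that is freed with them. MEOX2 and TCF15 are transcription factors that act as a pair in heart endothelium on Cd36 and Lpl, and PPARG is a nuclear receptor for lipids that acts on Cd36, Fabp4 and Gpihbp1.

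The table held 31028 cells. Of these, 2064 were set aside because markers of another cell type reached 1% of their UMIs, 1340 of them haematopoietic, and 28964 cells were kept as EC. The pan-endothelial list (Pecam1, Cdh5, Kdr, Tie1, Egfl7 and Esam) summed to 5197 to 5670.4 UMIs per 1000000 endothelial UMIs (counts scaled in this way are called CPM) in the healthy and 5282 to 5523 in the MI mice. Of its 6 genes, 5 were not called in the test described below and Kdr was called lower in MI (log2 fold change -0.85 ± 0.13, edgeR adjusted P = 0.00107). The kept cells gave 6434267 to 7657745 UMIs per mouse in the healthy group and 14477955 to 23771541 in the MI group, with a median per cell of 1472.5 to 2080 and 3404 to 4686, so that MI values rest on more molecules. Some healthy cells were present in more than 1 library. Healthy 228 shared 2041 cell barcodes with Healthy 239, of which 2030 held matching UMIs, and 316 with Healthy 227, of which 301 matched. Copied cells made up 10.7%, 61.8%, 51.5% and 0.0314% of the EC of Healthy 227, 228, 239 and 240 and 0% of those of the MI mice. Healthy 227, 228 and 239 are therefore not fully independent samples, although the tests below treat them as such. Values without the copied cells are given below for some genes and tests. Healthy 227 and MI 244 stood apart with Xist at 5.87 and 0.59 on the log2(CPM + 1) scale, against 9.99 to 10.2 in the other 6 libraries. The methods name male and female mice, and the labels do not give the sex of each mouse.

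Over all EC, most of the uptake genes were lower in the infarcted heart at 7 days. UMIs were summed per mouse, expressed as CPM and tested with the quasi-likelihood method of edgeR, with P values adjusted after Benjamini and Hochberg over 12322 genes and a threshold of 0.05. At this threshold 7 of the 10 genes fell, 1 rose (Fabp5) and 2 were not called (Meox2 and Slc27a3). Of all genes tested, 38.2% were called, 18.9% lower and 19.3% higher. The median log2 fold change was -0.57 over the 10 genes and -0.02 over all genes tested. For 8 of the 10, the healthy and MI mice did not overlap, 7 with MI lower and 1 with MI higher, against 36.2% of all genes without overlap, 12.5% with MI lower and 23.7% with MI higher. In sums over a whole sort, fewer cells of a type and less RNA per cell cannot be told apart.

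**Figure D1:**
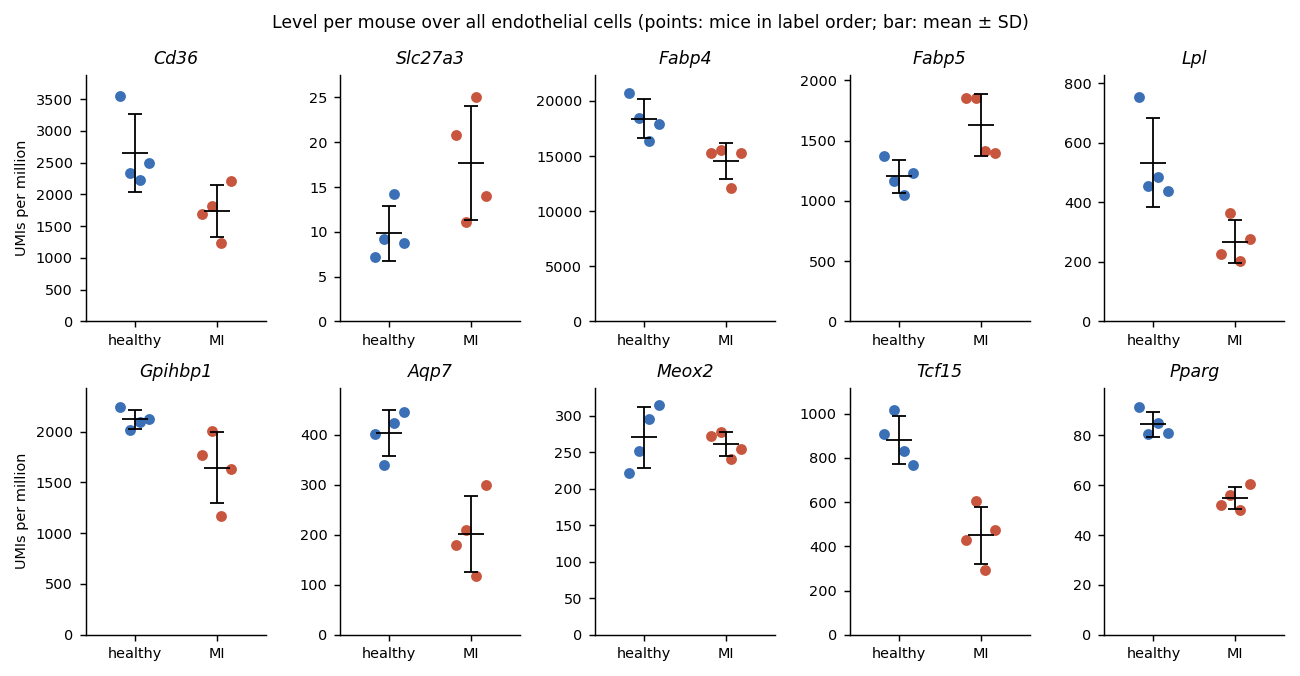
Level of the 10 genes in CPM of the endothelial UMIs (vertical axes, from 0) in the 4 healthy and 4 MI mice; points are mice in the order of their numbers, and the bar is the mean ± SD. The MI points lie below all healthy points for 7 genes and above them for Fabp5, and the groups overlap for Meox2 and Slc27a3.

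Of the membrane transporters, Cd36, the main fatty acid receptor of the capillary, stood at 3549.7, 2336, 2223 and 2491 CPM in Healthy 227, 228, 239 and 240, and at 1687, 1815, 1228 and 2214 CPM in MI 244, 250, 255 and 256. Healthy 227 was well above the other healthy mice, and MI 256 lay just under the lowest of them. The mean was 2649.9 ± 609.9 CPM in the healthy and 1736 ± 406 CPM in the MI mice (SD, n = 4 each), and the log2 fold change was -0.69 ± 0.19 (SE; edgeR adjusted P = 0.0191). Without Healthy 227 it was -0.52 (edgeR adjusted P = 0.0450), without the copied cells -0.84 (edgeR adjusted P = 0.00526), and with each cell thinned to 1000 UMIs -0.54 (edgeR adjusted P = 0.0588). Slc27a3, which encodes the transport protein FATP3, was detected at only 46 to 109 UMIs in a healthy library and 202 to 550 in an MI library. Its level was 7.15, 9.21, 14.2 and 8.74 CPM in the healthy and 20.8, 11.1, 25.1 and 14.0 CPM in the MI mice, with Healthy 239 above MI 250 and MI 256. The log2 fold change was 0.76 ± 0.28 and did not pass the test (edgeR adjusted P = 0.0536). Without the copied cells it was 1.18 ± 0.29 and passed (edgeR adjusted P = 0.00996).

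The cytosolic binding proteins went in opposite directions. Fabp4, which is shared by capillary endothelium and fat cells, stood at 20696, 18458, 16402 and 17946 CPM in the healthy and at 15253, 15508, 12081 and 15260.0 CPM in the MI mice. MI 255 was below the other 3 MI mice, which lay close together. The log2 fold change of Fabp4 was -0.42 ± 0.10 (edgeR adjusted P = 0.0111). Its paralogue Fabp5, which is also made by macrophages and skin cells, stood at 1373, 1165, 1048 and 1234 CPM in the healthy and at 1854, 1855, 1418 and 1395 CPM in the MI mice. MI 255 and MI 256 were only just above Healthy 227. The log2 fold change of Fabp5 was 0.35 ± 0.12 (edgeR adjusted P = 0.0439), and it missed the threshold when Healthy 228, 239 or 240 or MI 244 or 250 was left out (edgeR adjusted P of 0.0738 to 0.121), with Xist as a covariate (edgeR adjusted P = 0.0610) and with no cells of other types set aside (edgeR adjusted P = 0.0778).

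At the capillary wall, Lpl, the lipase itself, stood at 755, 455, 484 and 439.7 CPM in the healthy and at 228, 366, 203 and 277 CPM in the MI mice. All 4 MI mice were below every healthy mouse, and Healthy 227 stood well above the other 3. Lpl fell by 1.07 ± 0.21 on the log2 scale (SE; edgeR adjusted P = 0.00397), and by 0.86 without Healthy 227 (edgeR adjusted P = 0.00699). Gpihbp1, which anchors the lipase to the capillary, stood at 2239, 2019, 2098 and 2120.04 CPM in the healthy and at 1772, 2006, 1171 and 1627 CPM in the MI mice. MI 250 lay just under Healthy 228, and MI 255 was lowest. Its log2 fold change was -0.45 ± 0.14 (edgeR adjusted P = 0.0312), and in 7 of 22 alternative settings it missed the threshold, among them thinned cells (-0.37, edgeR adjusted P = 0.0810). Aqp7, the glycerol channel, stood at 402, 339, 424 and 446 CPM in the healthy and at 179, 210.3, 117 and 299 CPM in the MI mice, with MI 256 nearest to the healthy range. Its log2 fold change was -1.08 ± 0.24 (edgeR adjusted P = 0.00639) and -1.28 without the copied cells (edgeR adjusted P = 0.00273).

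The regulators were divided. Tcf15 stood at 907, 1018, 833 and 767 CPM in the healthy and at 427, 606, 291 and 473 CPM in the MI mice, and the groups lay well apart. It fell by 1.05 ± 0.20 on the log2 scale (SE; edgeR adjusted P = 0.00274), a mean of 881 ± 108 CPM against 449.6 ± 130.2 CPM (SD, n = 4 each). Meox2, with which its protein pairs, stood at 221, 251, 295 and 314 CPM in the healthy and at 272, 277, 241 and 254 CPM in the MI mice, and all 4 MI values lay inside the healthy range. Its log2 fold change was -0.13 ± 0.11 (edgeR adjusted P = 0.365), and it passed in 0 of 22 alternative settings. Pparg was scarce but varied little within each group, at 91.4, 80.5, 84.8 and 81.1 CPM in the healthy and 52.2, 56.1, 50.2 and 60.4 CPM in the MI mice. Its log2 fold change was -0.71 ± 0.08 (edgeR adjusted P = 0.000374), and it passed in 22 of 22 alternative settings, as did Tcf15, Lpl, Aqp7 and Fabp4.

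Markers of other cells were measured in the same sums. The haematopoietic list summed to 48.5 to 185 CPM in the healthy and 332 to 582 CPM in the MI mice, and 17 of its 17 genes had the higher mean in MI. Of these, 11 passed the test as higher. With cells set aside at 0.5% or 2% of such UMIs in place of 1%, the log2 fold change of Fabp5 was 0.36 and 0.36. The cardiomyocyte list, 3 of whose 12 genes had the higher mean in MI, summed to 55.0 to 111 CPM and 45.9 to 92.3 CPM. Of its 11 genes tested, 4 were called lower in MI and 7 were not called, with a median log2 fold change of -0.77. The lymphatic list summed to 3.82 to 10.4 CPM and 8.88 to 31.7 CPM, with 5 of 6 genes at the higher mean in MI and 2 of 4 tested called higher. Of the adipocyte list, 3 of 8 genes were in the table, and they summed to at most 0.392 CPM in any mouse, with Healthy 228, Healthy 240 and MI 256 at 0. The dissociation list summed to 5284 to 8310 and 5382 to 7608 CPM. The fibroblast list summed to 17.4 to 32.5 CPM in the healthy and 30.9 to 59.3 CPM in the MI mice, with 7 of its 9 genes at the higher mean in MI, 5 called higher and 1 lower. The mural list summed to 86.5 to 199.6 and 99.6 to 200.4 CPM, with 4 of 10 genes at the higher mean in MI. The platelet list summed to 26.4 to 52.8 CPM in the healthy and 35.0 to 41.0 CPM in the MI mice, with 2 of 4 genes called lower and 1 higher. The erythroid list summed to 84.7 to 241 and 51.1 to 415 CPM, with 0 of 4 genes tested called. The part of these RNAs in the differences was not tested.

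The stretches before the start of 4 of these genes are printed because Cd36 and Aqp7 fell together while Meox2 and Slc27a3 were not called. Each runs 5′ to 3′ on the gene's strand from 250 to 11 bases before the RefSeq start (GRCm38.p6) and lies in no annotated exon. Of the 10 genes, 5 had such a window in the table used, the other being Pparg, which also fell and has 3 windows. Aqp7 has a further start in that table, and the start used for Cd36 lies inside the gene as annotated. Capitals mark AGGTCA, the core hexamer bound by PPARG with its partner RXR and by other nuclear receptors, on either strand (read as TGACCT where it lies on the other strand). The Cd36 window is chr5:17835907-17836146 on the minus strand, that of Aqp7 chr4:41048147-41048386 on the minus strand, that of Meox2 chr12:37108290-37108529 on the plus strand and that of Slc27a3 chr3:90389949-90390188 on the minus strand.
Cd36: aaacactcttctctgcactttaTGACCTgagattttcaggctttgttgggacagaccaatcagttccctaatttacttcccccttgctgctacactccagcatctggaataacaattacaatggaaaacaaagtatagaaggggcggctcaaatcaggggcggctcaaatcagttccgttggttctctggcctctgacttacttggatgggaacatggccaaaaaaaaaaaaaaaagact
Aqp7: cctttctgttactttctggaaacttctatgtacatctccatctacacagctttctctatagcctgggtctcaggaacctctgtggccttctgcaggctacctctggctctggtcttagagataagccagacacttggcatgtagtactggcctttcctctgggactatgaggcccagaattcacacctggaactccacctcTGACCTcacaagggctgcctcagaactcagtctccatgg
Meox2: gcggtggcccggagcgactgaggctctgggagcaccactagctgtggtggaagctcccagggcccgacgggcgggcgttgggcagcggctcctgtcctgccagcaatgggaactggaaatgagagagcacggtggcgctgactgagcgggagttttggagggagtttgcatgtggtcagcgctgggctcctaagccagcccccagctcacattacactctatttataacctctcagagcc
Slc27a3: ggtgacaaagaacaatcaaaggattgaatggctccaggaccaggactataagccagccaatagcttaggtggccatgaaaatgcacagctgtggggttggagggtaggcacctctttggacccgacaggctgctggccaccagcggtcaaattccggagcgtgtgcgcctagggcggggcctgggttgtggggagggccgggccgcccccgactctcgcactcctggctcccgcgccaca
AGGTCA stood once in the Cd36 window, 228 to 223 bases before the start, and once in that of Aqp7, 49 to 44 bases before it, and not in the other two. Of the windows not printed, it stood in 1 of 3 of Pparg and in that of the further Aqp7 start. Of 32851 windows of the same length in the table, 13.5% held it. A direct repeat of it with 1 base between, which contains it, was in 0 of the 4 windows and in 0.0335% of all. The homeobox core TAATTA was in 0 of the 4 and in 4.77% of all, and the E-box CANNTG, to which factors of the TCF15 kind bind, was in each of the 4 windows and in 65.0% of all. Both strands were searched. A match describes these letters only.

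**Figure D2:**
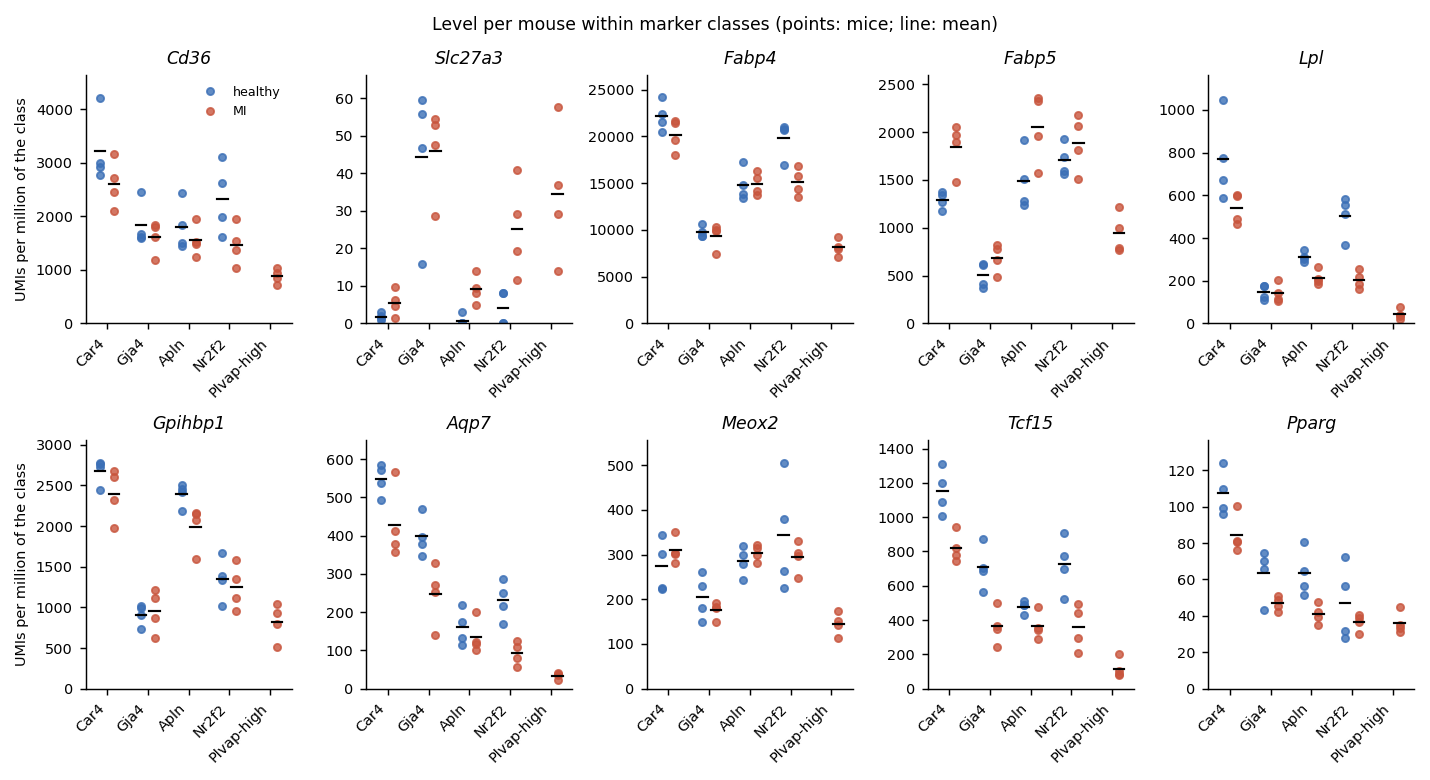
Level of the 10 genes within 5 classes of EC that hold UMIs of a single marker gene (horizontal axes), in CPM of the UMIs of the class (vertical axes, from 0); points are the 4 healthy (blue) and 4 MI (red) mice and the line is their mean. The Plvap-high class has MI mice only, since the healthy libraries held 0 to 2 such cells each.

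The second question was where in the endothelium these genes are used. EC with at least 1000 UMIs were thinned to 1000 and put in a class when they held a UMI of 1 marker only: Car4 for capillary (3719 cells), Gja4 for arterial (1820), Apln for sprouting (1589), Nr2f2 for venous (751) and at least 3 UMIs of Plvap for Plvap-high cells (511). A class is a range of marker UMIs, not a cell type: 498 cells held 2 and 291 held 3 Plvap UMIs, 648 cells held markers of more than 1 class, 18312 held none and 1614 healthy cells were too shallow. Levels came from the full counts of the class summed per mouse, and the classes were compared in 1 edgeR fit with the mouse as a block.

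Of the 10 genes, 7 had their highest level in the Car4 class. Cd36, Fabp4, Gpihbp1, Aqp7, Tcf15, Pparg and Lpl were each lower in all 4 other classes at an adjusted P under 0.05. Slc27a3 was highest in the Gja4 class, and Fabp5 and Meox2 did not pass in the Apln and Nr2f2 classes. In all, 35 of 40 differences from the Car4 class were called, 32 lower and 3 higher. The 3 higher were all of Slc27a3, which did not reach the count filter within the Car4 class, so that they are a description only. Over 9669 genes tested, 21.6% were called for Gja4 (9.23% lower, 12.4% higher), 25.3% for Apln (11.4% and 13.9%), 20.6% for Nr2f2 (8.85% and 11.8%) and 27.8% for Plvap-high (12.3% and 15.5%). Without the copied cells, 35 were called again.

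Lpl differed between the classes. In healthy mice it stood at 771 ± 200.4 CPM in the Car4, 505 ± 95.5 in the Nr2f2, 312 ± 24.8 in the Apln and 147 ± 34.3 in the Gja4 class (mean ± SD, n = 4). In the Plvap-high cells of the 4 MI mice it stood at 20.3, 76.4, 32.6 and 38.03 CPM, far under the 468 to 599.5 CPM of their Car4 class, and the log2 difference of the 2 classes was -3.72 ± 0.22 (SE; edgeR adjusted P = 5.65e-18). Lpl was higher in the Nr2f2 than in the Apln class in 4 of 4 healthy mice and in 1 of 4 MI mice. Healthy 228 and 239 share copied cells, and without these it was higher in 2 of the 2 healthy mice that kept 20 cells in both classes. The fit took healthy and MI mice together and did not call this pair (edgeR adjusted P = 0.464), and the healthy mice alone were not tested. Gpihbp1 kept a different order. It stood at 2678 ± 161 CPM in the healthy Car4 class, 2391 ± 140.7 in the Apln, 1350 ± 270.1 in the Nr2f2 and 909.5 ± 129 in the Gja4 class. The step from Car4 to Apln was small for Gpihbp1 (log2 difference -0.23 ± 0.07, edgeR adjusted P = 0.0109) and larger for Lpl (-1.29 ± 0.12, edgeR adjusted P = 4.91e-11). Aqp7 was the one member of the wall group to put the arterial class second, at 547 ± 41.1 CPM in the healthy Car4 class, 398 ± 52.8 in the Gja4, 231 ± 50.1 in the Nr2f2 and 160.1 ± 47.0 in the Apln class. It was higher in the Nr2f2 than in the Apln class in 3 of 4 healthy mice (2 of 2 without the copied cells) and 0 of 4 MI mice. The fit over all mice did not call this pair (log2 difference -0.24 ± 0.14, edgeR adjusted P = 0.289). In Plvap-high cells Aqp7 stood at 22.7, 38.2, 35.3 and 41.5 CPM, a log2 difference from the Car4 class of -3.38 ± 0.19 (edgeR adjusted P = 4.67e-19).

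Cd36 and Fabp4 were spread more evenly. Cd36 stood at 3227 ± 662 CPM in the healthy Car4 class and between 1808 and 2329 CPM in the healthy Gja4, Apln and Nr2f2 classes. No pair of these 3 was called in the fit over healthy and MI mice together (edgeR adjusted P of 0.488 to 0.837). Cd36 was higher in the Nr2f2 than in the Apln class in 3 of 4 healthy mice (1 of 2 without the copied cells) and 1 of 4 MI mice, and the healthy mice alone were not tested. Its lowest level was that of the Plvap-high cells, at 722, 1036, 843 and 937 CPM. Fabp4 followed the order Car4, Nr2f2, Apln and Gja4 in the healthy mice, at 22166, 19850.4, 14814 and 9805 CPM. Plvap-high cells stood at 8116 ± 911 CPM in the MI mice, and their difference from the Gja4 class was not called (edgeR adjusted P = 0.406). Slc27a3 went the other way. In the Gja4 class it stood at 15.7, 46.7, 55.7 and 59.6 CPM in the healthy and 54.4, 28.7, 47.5 and 52.9 CPM in the MI mice, and in the Car4 class at no more than 9.64 CPM in any mouse. Its log2 difference between Gja4 and Car4 classes was 3.51 ± 0.30. Slc27a3 did not reach the count filter within the Car4 class and entered the fit through classes where it is higher. This difference is therefore a description and not a test. That between Plvap-high and Gja4 cells was not called (edgeR adjusted P = 0.253). Among the healthy classes Fabp5 was lowest in Gja4, at 501 ± 133 CPM against 1287 ± 85.9 in the Car4, 1483 ± 314 in the Apln and 1706 ± 168 in the Nr2f2 class.

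Of the regulators, Tcf15 and Pparg were highest in the Car4 class and Meox2 was not. Tcf15 stood at 1151 ± 131 CPM in the healthy Car4 class and at 479 to 725 CPM in the healthy Apln, Gja4 and Nr2f2 classes. It was lower in the Apln class than in both others in 4 of 4 healthy mice, while the MI mice went both ways. Without the copied cells it was lower than in the Nr2f2 class in 2 of 2 and than in the Gja4 class in 3 of 3 healthy mice that kept 20 cells in both. No pair of these 3 was called in the fit over all 8 mice (edgeR adjusted P of 0.123 to 0.825), which does not test the healthy mice alone. In Plvap-high cells Tcf15 stood at 84.3, 204, 81.0 and 100.3 CPM, a log2 difference from Car4 of -2.71 ± 0.16 (edgeR adjusted P = 8.59e-18). Pparg stood at 107 ± 12.7 CPM in the healthy Car4 class and at 47.0 to 63.3 CPM in the other 3. Meox2 stood at 273 ± 59.7 CPM in the Car4, 285 ± 32.7 in the Apln, 344 ± 126 in the Nr2f2 and 205 ± 49.5 in the Gja4 class of healthy mice. It was lower in the Gja4 (log2 difference -0.65 ± 0.09, edgeR adjusted P = 4.43e-08) and Plvap-high classes (-0.92 ± 0.12, edgeR adjusted P = 1.63e-08) than in the Car4 class, and did not pass for Apln (0.02 ± 0.08) and Nr2f2 (0.04 ± 0.09). With a list of markers per class in place of 1 marker, Meox2 was higher in the Plvap-high than in the Car4 class, by 0.28 on the log2 scale (edgeR adjusted P = 0.0211). Contrasts with Plvap-high cells by the single marker rest on the 4 MI mice. By the list, this class took cells with at least 2 UMIs summed over Plvap, Lrg1, Aqp1, Emcn, Selp and Ackr1. It also held 7.51 to 9.67% of the cells of the healthy mice. A cell could enter it with no Plvap UMI, and Aqp1 alone stood at a mean of 1503 CPM over all EC. The list class is therefore not a class of Plvap-high cells as defined by the single marker.

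**Figure D3:**
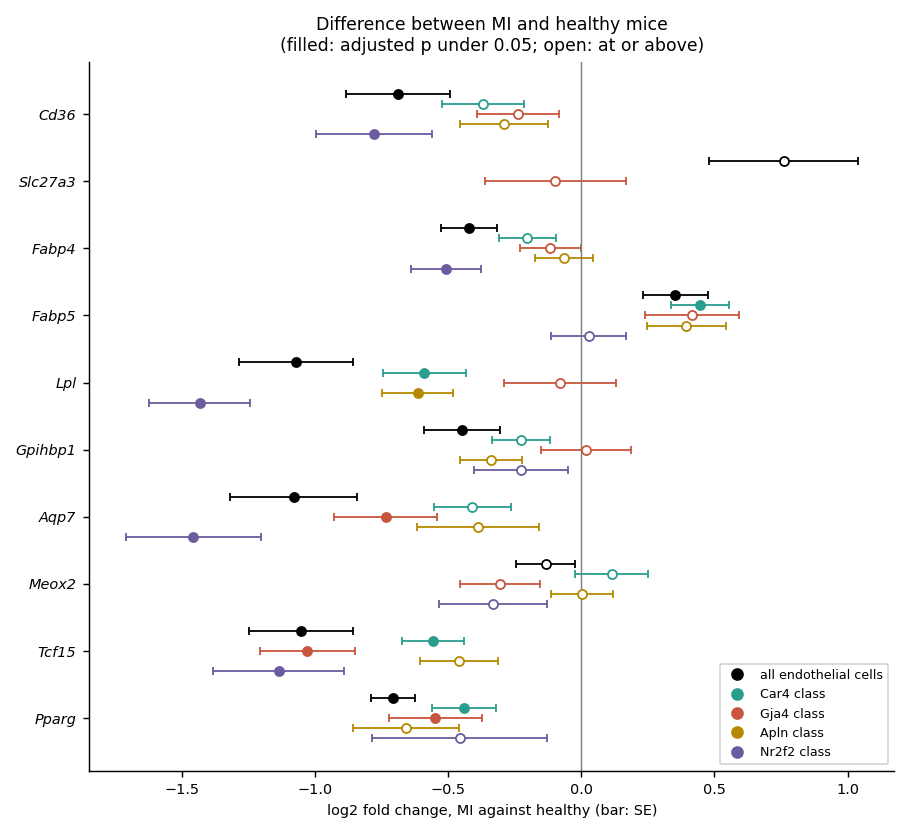
Log2 fold change of MI against healthy mice (horizontal axis) with its SE for the 10 genes, over all EC (black) and within 4 marker classes (colours); filled points passed an edgeR adjusted P of 0.05. Tcf15 lies left of 0 in all 5 rows and Fabp5 right of 0 in all 5, while the Meox2 points lie between -0.33 and 0.11.

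Within classes, the question was whether cells with the same marker differed between healthy and infarcted hearts. Of 37 tests of a member in a class, 13 were called, 12 of them lower in MI and 1 higher. In the Car4 class 4 of 9 were called, where 14.5% of all genes tested were called (7.72% lower, 6.73% higher). In the Gja4 class it was 3 of 10, against 14.6% (7.38% lower, 7.19% higher). In the Apln class it was 1 of 9, against 7.36% (4.31% lower, 3.05% higher), and in the Nr2f2 class 5 of 9, against 6.89% (4.31% lower, 2.58% higher). When 2 UMIs of the marker were asked for in place of 1, the Nr2f2 class had too few cells to be tested. Of the 8 calls in the other 3 classes 1 was left (Tcf15 in the Gja4 class), with Healthy 227 out of the Apln and MI 255 out of the Car4 class for having under 20 cells. Without MI 244 8 of 36 tests were called. Without the copied cells 12 of 38 were called, with Healthy 228 out of the Apln and Healthy 239 out of the Nr2f2 class for the same reason.

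Tcf15 was lower in MI in 3 of the 4 classes. In the Car4 class it stood at 1201, 1307, 1090 and 1006 CPM in the healthy and at 778, 940.2, 742 and 819 CPM in the MI mice, with no overlap (log2 fold change -0.56 ± 0.12, edgeR adjusted P = 0.00652). The log2 fold change of Tcf15 was -1.03 ± 0.18 in the Gja4 class (edgeR adjusted P = 0.000898) and -1.14 ± 0.25 in the Nr2f2 class (edgeR adjusted P = 0.0119), and in the Apln class it was -0.46 ± 0.15 and did not pass (edgeR adjusted P = 0.0642). Lpl was lower in the Car4 (-0.59 ± 0.16, edgeR adjusted P = 0.0220), Apln (-0.61 ± 0.13, edgeR adjusted P = 0.00926) and Nr2f2 classes (-1.43 ± 0.19, edgeR adjusted P = 0.00102). In the Gja4 class, where it is scarce, Lpl stood at 111 to 177 CPM in the healthy and 103 to 202 CPM in the MI mice. Pparg was lower in the Car4 (-0.44 ± 0.12, edgeR adjusted P = 0.0264) and Gja4 classes (-0.55 ± 0.18, edgeR adjusted P = 0.0431), the second of which was lost in 12 of 17 alternative settings. In the Apln class its log2 fold change was -0.66 ± 0.20 (edgeR adjusted P = 0.0536) and in the Nr2f2 class -0.46 ± 0.33 (edgeR adjusted P = 0.466), and neither passed.

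Aqp7 was lower in the Gja4 class, at 471, 346, 379 and 396 CPM in the healthy and 253, 270.3, 140.1 and 328 CPM in the MI mice (log2 fold change -0.73 ± 0.19, edgeR adjusted P = 0.0164). In the Nr2f2 class it fell from 249.7, 169.6, 288 and 217 CPM to 109.97, 81.4, 57.3 and 126 CPM (-1.46 ± 0.25, edgeR adjusted P = 0.00355). In the Car4 class its log2 fold change was -0.41 ± 0.14 and did not pass (edgeR adjusted P = 0.0705). Cd36 (-0.78 ± 0.22, edgeR adjusted P = 0.0423) and Fabp4 (-0.51 ± 0.13, edgeR adjusted P = 0.0284) were called in the Nr2f2 class only, and whether they differed there from the Car4 class was tested below. Fabp5 was higher in MI in the Car4 class, at 1178 to 1372 CPM in the healthy and 1473 to 2049.8 CPM in the MI mice (0.45 ± 0.11, edgeR adjusted P = 0.0142). Its log2 fold change was 0.42 ± 0.18 in the Gja4 (edgeR adjusted P = 0.125), 0.39 ± 0.15 in the Apln (edgeR adjusted P = 0.117) and 0.03 ± 0.14 in the Nr2f2 class (edgeR adjusted P = 0.944), none of which passed. Gpihbp1 and Meox2 were called in 0 of the 4 classes. Slc27a3 reached the count filter in the Gja4 class alone, where its log2 fold change was -0.10 ± 0.27 (edgeR adjusted P = 0.859).

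The difference in MI effect between classes was tested directly. Of 30 differences between the MI effect in a class and that in the Car4 class, 2 were called, both in the Nr2f2 class, where 0.461% of 9537 genes were called (0.398% lower, 0.0629% higher). For Gja4 it was 0.975% (0.451% lower, 0.524% higher) and for Apln 1.76% (1.31% lower, 0.451% higher). Aqp7 fell by 0.94 ± 0.21 more there on the log2 scale (SE; edgeR adjusted P = 0.0161) and Lpl by 0.81 ± 0.18 more (edgeR adjusted P = 0.0175). For Cd36 this difference was -0.36 ± 0.11 (edgeR adjusted P = 0.185) and for Fabp4 -0.24 ± 0.08 (edgeR adjusted P = 0.308). The 30 include those of Slc27a3, which did not reach the count filter within the Car4 class, so that its differences are a description only. Neither call held in every alternative. Aqp7 did not pass without Healthy 227 (edgeR adjusted P = 0.0571) or Healthy 239 (0.129), and Lpl did not pass without Healthy 228 (0.242) or MI 255 (0.0828), nor with copies left out of the shallower library only (0.0648). Without the copied cells, which also takes Healthy 239 out of the Nr2f2 class with 16 cells, 0 were called, and the differences were then -0.95 for Aqp7 and -0.75 for Lpl. The healthy Nr2f2 class held only 34 to 49 cells per mouse. Levels of other markers also moved in the Nr2f2 class: Plvap went from 68.6 ± 39.9 to 531 ± 188 CPM, Selp from 5.59 ± 3.82 to 103 ± 34.1 CPM, and Fmo2 from 350.1 ± 136 to 134 ± 52.3 CPM (mean ± SD, n = 4 each). In these sums, other cells in the class and other RNA levels per cell cannot be told apart. The part of these shifts in the differences was not tested.

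The classes themselves changed in size. The Car4 class made up 20.6 ± 2.78% of thinned EC in healthy and 8.64 ± 4.32% in MI mice, the Apln class 3.05 ± 0.618% and 7.68 ± 1.42%, the Nr2f2 class 1.54 ± 0.323% and 3.67 ± 1.52%, and the Plvap-high class 0.0380 ± 0.0329% and 3.20 ± 2.44% (exact permutation P = 0.0286 each, two-sided, the smallest that 70 splits can give; adjusted exact P = 0.0357 over 5 classes). The Plvap-high share was 3.45, 1.67, 6.54 and 1.12% in the MI mice, and without MI 255 its MI minus healthy difference was 2.04 points against 3.16, and that of Nr2f2 1.38 against 2.13. With a list of markers per class the difference was -5.86 points for Car4 against -11.96, and 2.73 for Apln against 4.63. For the Plvap-high list, by which a cell needs no Plvap UMI, it was 6.18 against 3.16. For Nr2f2 it was 0.84 against 2.13, which did not pass (adjusted exact P = 0.0714). With 2 UMIs of the marker it was -3.53 for Car4, 1.24 for Apln and 0.27 for Nr2f2, the last of which did not pass (adjusted exact P = 0.0714). The Gja4 class held 6.20 ± 2.28% and 6.99 ± 0.948% (exact permutation P = 0.543). The marker genes differ between the groups too, with a log2 fold change over all EC of -1.55 for Car4, 1.07 for Apln and 5.33 for Plvap, so that a share of a class is not a count of a cell type. In cells of no class, the level of Lpl was 511 ± 153 CPM in healthy and 287 ± 62.5 CPM in MI mice, that of Aqp7 392 ± 44.1 and 202 ± 68.3 CPM, and that of Tcf15 841 ± 97.1 and 467 ± 113 CPM.

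The share of EC with a UMI of each gene was measured on cells thinned to 1000 UMIs. Tcf15 was seen in 54.6 ± 3.11% of healthy and 35.8 ± 8.16% of MI cells, Lpl in 36.7 ± 7.13% and 23.4 ± 5.08%, and Pparg in 8.35 ± 0.378% and 6.06 ± 0.557% (mean ± SD, n = 4 mice each). These 3 reached an exact permutation P of 0.0286, the smallest possible, and 0 of 10 genes passed after adjustment over the 10 (adjusted exact P = 0.0952). Without the copied cells 6 passed (adjusted exact P = 0.0476 each): Cd36, Aqp7, Tcf15, Pparg, Slc27a3 and Lpl. Before thinning, at a median depth of 2934 UMIs, 94.8% of all EC held Cd36 and 53.8% held Lpl. Without thinning, where depth differs between the groups, 2 genes had the lower share in MI against 7 with thinning. The shares of Lpl and Pparg were then higher in MI. For comparison, of 1328 haematopoietic cells set aside, thinned alike (median 6555 UMIs before thinning), 25.0% held a UMI of Cd36, 9.11% of Lpl, 6.85% of Tcf15 and 75.9% of Fabp4, against 80.1%, 28.9%, 43.7% and 99.4% of EC. Whether these cells make such RNAs themselves was not tested, so their shares are not a measure of stray RNA alone. Other cells set aside gave higher shares for some genes. Of 76 fibroblasts 39.5% held Lpl (exact 95% interval 28.4 to 51.4%, counting error only), against 28.9% of EC. Of 413 mural cells 42.9% held Cd36, 12.8% Lpl, 34.6% Tcf15 and 86.9% Fabp4, and of 146 erythroid cells 65.1% held Cd36. For Slc27a3 the share in haematopoietic cells was 0.753% (exact 95% interval 0.362 to 1.38%, counting error only) against 1.28% in EC (1.15 to 1.42%). These intervals overlap, so that over all EC its share was not told apart from that in haematopoietic cells. Both shares pool healthy and MI cells. Each MI mouse gave 111 to 448 haematopoietic cells and each healthy mouse 22 to 80, and the groups were not compared separately.

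**Figure D4:**
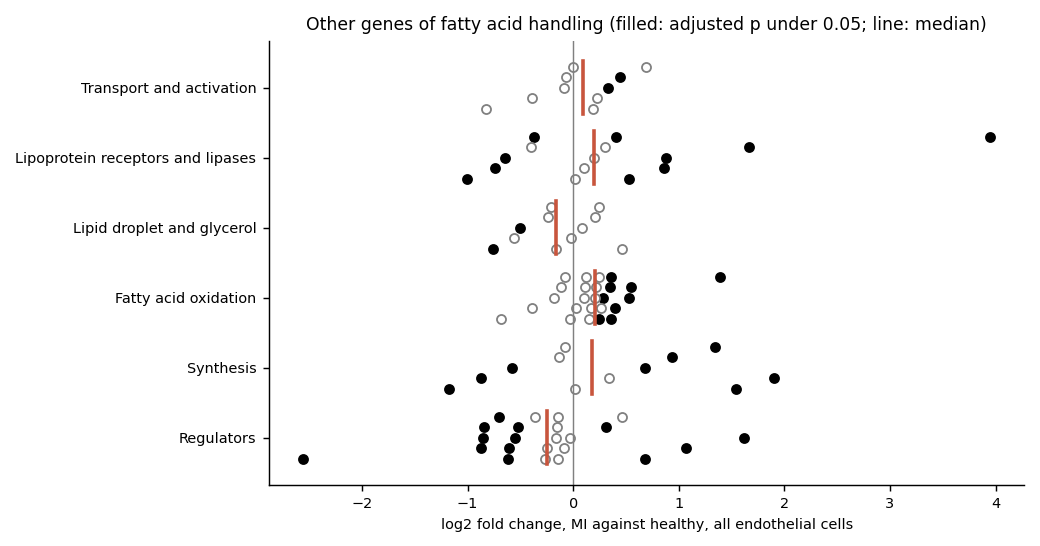
Log2 fold change of MI against healthy mice over all EC (horizontal axis) for 96 other genes in 6 lists of fatty acid handling; filled points passed an edgeR adjusted P of 0.05 and the red line is the median of the list. The median lies left of 0 for lipid droplet and glycerol genes (-0.16) and for regulators (-0.25), and right of 0 for the other 4 lists.

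Other genes of fatty acid handling did not follow the 10 in one direction. Of 127 such genes in 6 lists, 115 were in the table and 96 were tested, of which 26 were higher and 18 lower in MI, against 19.3% and 18.9% of all genes. Transport and activation genes had 2 of 10 higher and 0 lower: Dbi, which binds acyl-CoA (log2 fold change 0.45 ± 0.09, edgeR adjusted P = 0.00420), and Got2, which also acts at the plasma membrane (0.33 ± 0.09, edgeR adjusted P = 0.0158). Among lipoprotein receptors and lipases 6 of 15 were higher and 4 lower. Angptl4, whose protein inactivates lipoprotein lipase, rose by 1.67 ± 0.31 on the log2 scale (edgeR adjusted P = 0.00260), and Apoe, an apolipoprotein also made by macrophages, by 0.88 ± 0.13 (edgeR adjusted P = 0.00112). Mgll, which splits monoglycerides, fell by 1.003 ± 0.152 (edgeR adjusted P = 0.00110) and Acvrl1, a receptor that also takes up LDL, fell by 0.74 ± 0.11 (edgeR adjusted P = 0.00115).

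Lipid droplet and glycerol genes had 0 of 11 higher and 2 lower, among them the water channel Aqp1 (-0.76 ± 0.19, edgeR adjusted P = 0.0107). Of 25 fatty acid oxidation genes 9 were higher and 0 lower, with a median of 0.20. Etfa, an electron carrier of beta-oxidation (0.54 ± 0.09, edgeR adjusted P = 0.00142), Ucp2, a mitochondrial carrier (0.53 ± 0.12, edgeR adjusted P = 0.00724), Slc25a20, the carnitine carrier (0.40 ± 0.12, edgeR adjusted P = 0.0291), and Hadh, an oxidation enzyme (0.36 ± 0.09, edgeR adjusted P = 0.0138), were the 4 of largest change above 20 CPM. Synthesis genes had 5 of 12 higher and 3 lower, with a median of 0.18. Of those called, only the elongase Elovl5 reached 20 CPM, and it was among the lower (-0.58 ± 0.12, edgeR adjusted P = 0.00422). Of 23 regulators 4 were higher and 9 lower. Sox18, an endothelial transcription factor, rose by 1.62 ± 0.25 (edgeR adjusted P = 0.00112) and Apln, a peptide of sprouting cells, by 1.07 ± 0.18 (edgeR adjusted P = 0.00197), and Kdr, the main VEGF receptor, fell by 0.85 ± 0.13 (edgeR adjusted P = 0.00107) and the flow-responsive factor Klf4 by 0.85 ± 0.23 (edgeR adjusted P = 0.0162).

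Genes with the most similar pattern were sought over 36 sums of a mouse and class, among 6225 genes of at least 20 CPM, as a description (Pearson's r of log2 CPM; sums share libraries and depth). For Cd36 these were Tmem140 (r = 0.90), Mllt4, Tcf15, Unc45b and Lpl, and for Fabp4 Sdpr (r = 0.92), Lpl, Slc28a2, Kank3 and Fmo1, so that other genes of the 10 were among the nearest of both. For Gpihbp1 they were Cyp4b1 (r = 0.91), Arhgap18, Jam3, Ctnnbip1 and Ppp1r2. For Meox2 the likeness was weaker, with Car8 (r = 0.80), Kcna5, Srsf2, Lyn and Mycn.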

How the data were processed

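Per the labels and the methods, the authors sequenced 8 10X Chromium 3′ libraries, processed them with Cell Ranger on mm10 and Seurat 2.3 (R 3.5.2), left out cells under 400 genes or over 20% mitochondrial UMIs, and deposited raw UMI counts of 31028 cells in 1 table. From these counts, cells with 1% of UMIs and 3 genes (platelets 2) of another cell type's list were set aside, and cells with 90% of UMIs matched at a shared barcode were called copied. No doublet caller was run, and cells with markers of more than 1 class entered no class. UMIs were summed per mouse, or per mouse and class of at least 20 cells, and tested with edgeR 4.0.16 (quasi-likelihood, TMM, filterByExpr, Benjamini-Hochberg at 0.05) in R 4.3.3. Classes were compared with the mouse as a block. Shares used exact two-sided permutation tests (scipy 1.17.1). The steps were tested on simulated data. Alternatives were DESeq2 1.42.0, limma-voom 3.58.1, other filters, thinning, class rules, and leaving out copied cells or each mouse.

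All 10 genes were named in every comparison, with up to 4 called genes of at least 20 CPM and largest change per other list, the 5 genes of most similar pattern for Cd36, Fabp4, Gpihbp1 and Meox2, and markers where a value rests on them. The members and lists were chosen with earlier results of these data known. Mice are the replicates. Intervals cover counting error only. Genes were counted from their 3′ ends, so that levels are not compared between genes.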

Additional observations from a re-analysis of the deposited data

Results flagged for a closer look

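Within groups of 4 mice, 1 mouse stood far from the other 3 in 12 of 140 groups of values examined, and chance gives about 1 in 20. Healthy 227 was high for Cd36, at 4209 CPM in the Car4 class against 2772 to 3001 CPM in the other 3 healthy mice and at 2461 CPM in the Gja4 class against 1587 to 1665 CPM. It was also high for Lpl over all EC, at 755 CPM against 439.7 to 484 CPM, and its Apln class made up 2.12% of cells against 3.33 to 3.39%. MI 255 was low for Fabp4 over all EC, at 12081 CPM against 15253 to 15508 CPM, and in the Gja4 class, at 7468 CPM. It was low for Gpihbp1 in the Apln class, at 1595 CPM, and its Nr2f2 class made up 5.93% of cells against 2.65 to 3.18% in the other 3 MI mice.

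The other values concerned single genes. Fabp4 stood at 16890.2 CPM in the Nr2f2 class of Healthy 240, under the other 3 healthy mice. Gpihbp1 stood at 2438 CPM in the Car4 class of Healthy 228, again the lowest of the healthy mice. Tcf15 stood at 204 CPM in the Plvap-high class of MI 250, where the other 3 mice held 81.0 to 100.3 CPM. Slc27a3 stood at 2.96 CPM in the Apln class of Healthy 239, and was at 0 in the other 3 healthy mice. Any count above 0 would have been flagged there, so that this flag carries no information.

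The MI effect differed between the Nr2f2 and Car4 classes by -0.94 for Aqp7 and -0.81 for Lpl on the log2 scale, by the class by group term of the edgeR fit (adjusted P = 0.0161 and 0.0175). Neither passed without the copied cells (adjusted P = 0.142 and 0.187), where Healthy 239 had too few Nr2f2 cells to enter. Aqp7 also did not pass without Healthy 227 or Healthy 239, and Lpl without Healthy 228 or MI 255.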

How the results depend on the processing

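Over all EC, 6 to 9 of the 10 genes were called in each alternative, and 2665 genes in all after thinning to 1000 UMIs against 4710. With 2 UMIs of the marker the Nr2f2 class had under 20 cells in every healthy mouse and was not compared with MI, and 1 of 28 member tests within classes was called, against 13 of 37 of which 5 were in Nr2f2. With 1 mouse left out 8 to 18 were called (8 without MI 244, 18 without MI 256). For Meox2 in the Apln class the log2 fold change of 0.003 became -0.027 without copied cells, -0.057 with cells counted in every class, -0.0057 with Plvap-high at 5 UMIs and -0.59 with a list of markers per class, and lay between -0.057 and 0.069 with 1 mouse left out. Against the Car4 class, a list of markers gave -0.24 for Slc27a3 in Apln. It gave 0.29 for Fabp5 and 0.28 for Meox2 in the class of the Plvap-high list, whose cells needed no Plvap UMI. With 2 UMIs the value was -0.060 for Fabp5 in Nr2f2, where only MI 255 had 20 cells or more and had too few Car4 cells to enter. Of the differences in MI effect between classes, 0 were called without copied cells, 1 with copies left out of the shallower library only (chosen after seeing the data) and 1 to 4 with 1 mouse left out, against 2. With 2 UMIs 0 of 20 were called, and the Nr2f2 class, which held both calls, was not among them. Of the shares of cells with a UMI, 6 passed without copied cells against 0, and without thinning the MI minus healthy difference was 2.91 points for Cd36, 6.27 for Pparg and 2.85 for Lpl. Of the class shares, 0 passed with 1 mouse left out against 4, since 3 against 4 mice cannot go below an exact P of 0.0571. With 2 UMIs of the marker and with a list of markers, 3 of 5 passed, since the Nr2f2 share did not (adjusted exact P = 0.0714 in each). The class of the Plvap-high list, which needs no Plvap UMI, held 8.30% in healthy and 14.5% in MI mice. By the single marker the shares were 0.0380% and 3.20%. The cause of the other shifts was not tested.

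Counts over all genes moved most with 2 UMIs of the marker. MI against healthy went from 1258 to 199 in the Car4, 1120 to 424 in the Gja4 and 531 to 112 in the Apln class, and against the Car4 class from 2089 to 1286 (Gja4), 2445 to 1311 (Apln), 1995 to 285 (Nr2f2, from the sum of MI 255 alone) and 2688 to 1674 (Plvap-high). The class by group term went from 93 to 36 (Gja4) and 168 to 21 (Apln), and from 44 to 9 in the Nr2f2 class without copied cells. Classes on full counts gave 1974 (Car4) and 713 (Nr2f2, against 347), and no filter gave 839 (Apln). With 1 mouse left out the range was 634 to 1645 for Car4, 312 to 762 for Apln and 181 to 389 for Nr2f2. Differences past the threshold in no setting are not listed. Slc27a3 rests on 46 to 109 UMIs per healthy library and the Nr2f2 class on 34 to 49 cells per healthy mouse. The Plvap-high class had too few healthy cells for a comparison with MI. No paired analysis was possible because healthy and MI mice share no number.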

Other observations

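Single EC that held Cd36 also held most of the other uptake genes more often. In MI mice, of cells thinned to 1000 UMIs, Aqp7 was seen in 22.6 ± 5.12% of cells with a Cd36 UMI and 9.30 ± 3.76% of those without, Lpl in 26.1 ± 4.80% and 14.8 ± 4.66%, and Tcf15 in 39.3 ± 7.09% and 24.9 ± 7.17% (mean ± SD over 4 mice, each higher with Cd36 in 4 of 4). For Slc27a3 the shares were 1.56 ± 0.473% and 1.52 ± 0.596%. In healthy mice they were 0.804 ± 0.221% and 1.29 ± 0.857% for Slc27a3 and 22.9 ± 3.18% and 21.4 ± 1.53% for Meox2, each higher with Cd36 in 2 of 4. The other uptake genes were higher with Cd36 in 4 of 4 healthy mice. These shares are a description, with no test.

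Outside the rule for named genes, and chosen after their values were seen, 2 scarce genes of the fatty acid lists did not overlap between the groups. Of all genes tested, 36.2% did not overlap, 12.5% with MI lower and 23.7% with MI higher. The other scarce genes of the lists were not counted, so that these 2 are examples only. Klf15, a metabolic transcription factor, stood at 2.33, 1.56, 2.48 and 2.65 CPM in the healthy and 0.252, 0.549, 0.547 and 0.207 CPM in the MI mice (log2 fold change -2.56 ± 0.36, edgeR adjusted P = 0.000788). Lipc, hepatic lipase, stood at 0, 0, 0.392 and 0 CPM in the healthy and 1.51, 1.18, 3.06 and 1.59 CPM in the MI mice, and no fold is given because most healthy libraries held none.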
